A study of Mus musculus with 4 samples.

Results

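In Parp-1 deficient mouse embryonic stem cells, a distal stretch of chromosome 14 gave a low whole DNA signal in both clones examined, and a stretch of chromosome 6 did so in one of them. The stretches were taken as positions 92774172 to 122762203 of chromosome 14 and 67464970 to 89328027 of chromosome 6. They were chosen by the Cy3 (whole DNA) signal of the clones, which lay below that of wild type there, so the Cy3 values below describe the choice and are given without a test. They held 444 and 900 of the 97179 probes used, or 1344 in all, against 2840 probes in the rest of chromosome 14 and 3547 in the rest of chromosome 6. Probes whose starts lay at most 500 bp apart formed a run. Runs of at least 3 probes numbered 57 in the chromosome 14 stretch and 127 in the chromosome 6 stretch, of 14121 on the array.

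The samples were 4 cultures of the J1 line: the Parp-1 deficient clones 210-58 and 226-47, each derived from J1, J1 given the PARP inhibitor PJ34, and wild type J1. Each was hybridised to 1 array, with DNA immunoprecipitated by an antibody against 5-methylcytidine in Cy5 and whole DNA of the same cells in Cy3. Neither the PJ34 dose and duration, nor the passage of the cultures, nor whether both clones go back to 1 targeted cell, is stated in the labels.

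PARP-1 is a nuclear enzyme that binds broken DNA and attaches chains of ADP-ribose to proteins, and PJ34 blocks that activity. In methylated DNA immunoprecipitation, the antibody pulls down fragments that carry methylated cytosines, and the ratio of IP to whole DNA serves as a measure of methylation. Most CpG islands, which lie at many promoters, are unmethylated in embryonic stem cells. Cultured embryonic stem cells are known to gain and lose chromosomes or parts of them, which changes the whole DNA signal of every probe in the part.

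Positions are those in the files, which pair no probe with a gene, and no label or header names their build. They are taken as mouse build mm8, which the definition of the stretches gives as the build they fit. The gene table at hand was for another build, GRCm38.p6, and positions cannot be carried between builds here, so no run was tied to a gene and runs are named by position. As background, distal mouse chromosome 14 carries the transcription factor genes Klf5, Sox21, Zic2 and Zic5, the glypican genes Gpc5 and Gpc6, which encode cell-surface proteoglycans, and Slitrk genes for synaptic membrane proteins. Chromosome 6 carries Gata2, a regulator of blood stem cells, Emx1 and Vax2, homeobox genes of the developing forebrain and eye, and Ctnna2, which encodes a neural catenin. Of the 57 genes listed for chromosome 14 and the 93 listed for chromosome 6, 55 and 92 are on that chromosome in the RefSeq table. Which of them lie inside a stretch was not determined, so no value is given for a gene. The Parp1 gene is not among those listed, and no value is given for it either.

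On every array, 99.8% to 100% of the probes of both stretches had a Cy3 signal well above background. The Cy5 signal was so for 93.0%, 98.4%, 94.8% and 97.3% of the chromosome 14 probes in clone 210-58, clone 226-47, PJ34 treated cells and wild type, and for 91.7%, 98.9%, 91.9% and 94.6% of the chromosome 6 probes. Clone 210-58 and wild type shared a slide, as did clone 226-47 and PJ34 treated cells. The number of arrays limits the precision.

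In the chromosome 14 stretch the whole DNA signal was lower in both clones and nearly level after PJ34. The median centred log2 Cy3 signal of the 444 probes was -0.12 in clone 210-58, -0.10 in clone 226-47 and 0.59 in PJ34 treated cells, against 0.65 in wild type. Probe by probe, clone 210-58 lay at a median of -0.77 relative to wild type (SD over probes 0.24), clone 226-47 at -0.73 (SD 0.21) and PJ34 treated cells at -0.06 (SD 0.17). In the rest of the chromosome these medians were -0.06, 0.03 and 0.01. The signal lay below wild type at 442 probes of the stretch in clone 210-58, at 439 in clone 226-47 and at 294 after PJ34. All 57 runs were below wild type in both clones, at -0.98 to -0.30 in clone 210-58 and -0.86 to -0.25 in clone 226-47. The low Cy3 of the clones chose the stretch, so their counts restate that choice and separate no groups. PJ34 treated cells had no part in it, but they are set against the 1 wild type array, which had. They lay below it at 39 of the 57 runs. By probe this was 66.2% in the stretch, against 47.5% in the rest of the chromosome and 48.2% on autosomes other than 6, 8, 11 and 14.

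Differences within a slide use the same clone arrays that chose the stretch, so they too are a description. Clone 226-47 minus PJ34 treated cells, its partner on the slide, had a median Cy3 difference of -0.67 in the stretch and 0.02 in the rest of chromosome 14. Clone 210-58 minus wild type, the other pair on 1 slide, is the difference of -0.77 already given. For scale, probes of chromosome 8, which is low in both clones over its length, had median differences of -0.44 in clone 210-58 and -0.44 in clone 226-47, and chromosome 11 had 0.49 in clone 210-58.

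**Figure D1:**
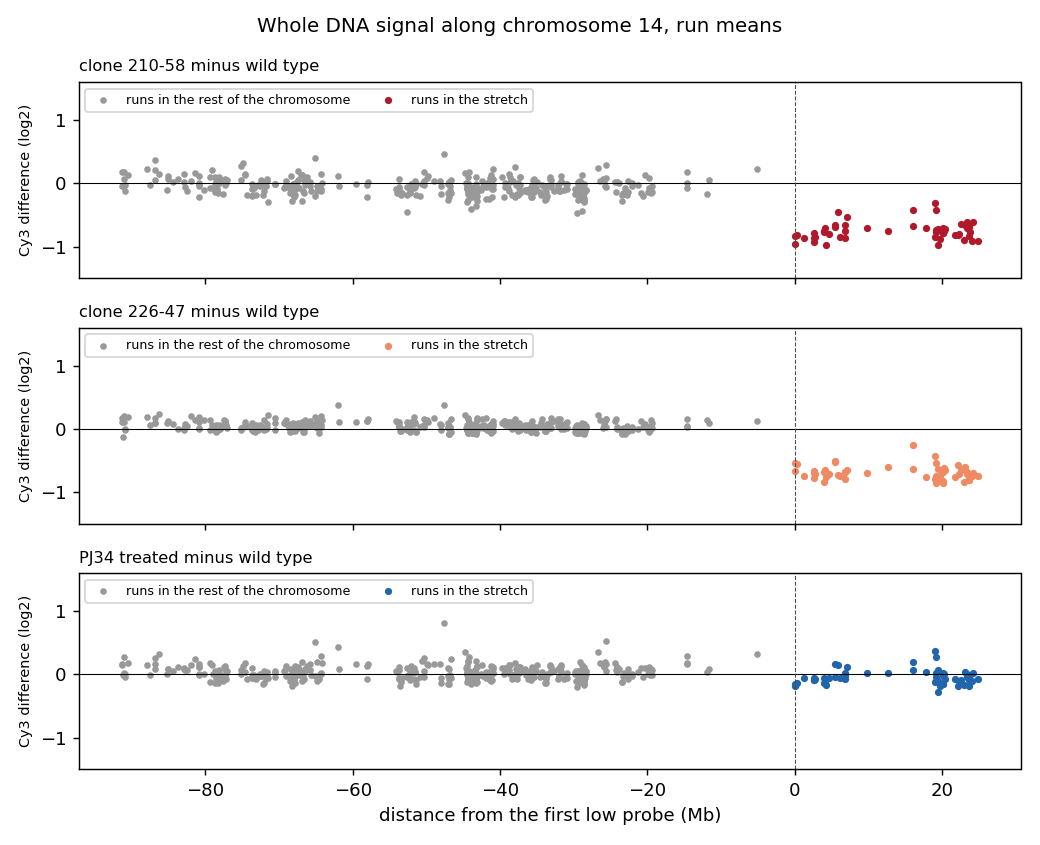
Mean Cy3 difference from wild type (log2, y axis) of each run of at least 3 probes along chromosome 14, by distance in Mb from the first low probe (x axis, dashed line), for clone 210-58, clone 226-47 and PJ34 treated cells. Coloured points are the 57 runs of the stretch and grey points those of the rest of the chromosome. In both clones all coloured points lie below 0, and after PJ34 they lie on either side of it.

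The border of the chromosome 14 stretch fell in a gap without probes. Least-squares change points of the Cy3 difference put it between 92774216 and 97929102 in clone 210-58 and in clone 226-47, a gap of 5.15 Mb. The first probe of the stated interval lies on the retained side of this gap, where clone 210-58 was at 0.41 relative to wild type in Cy3, clone 226-47 at 0.10 and PJ34 treated cells at 0.37. It belongs to a run of 3 probes from 92773814 to 92774216 with Cy3 differences of 0.23 in clone 210-58, 0.12 in clone 226-47 and 0.32 in PJ34 treated cells, so this run is at the level of the retained side.

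The first low run, from 97929102 to 97929697, had -0.96 in clone 210-58, -0.53 in clone 226-47 and -0.19 in PJ34 treated cells. The next, from 97982462 to 97983158, had -0.84, -0.67 and -0.15 in the same order. The low level then went on to the last probe of the chromosome on the array, which ends at 122762247, over 24.8 Mb and 443 probes. No distal border was found, since no probe lies beyond it. The 3 probes at that end had differences of -1.22, -0.79 and -0.75 in clone 210-58 and -0.87, -0.74 and -0.89 in clone 226-47.

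In the chromosome 6 stretch, the whole DNA signal was lower in clone 210-58 and nearly level in clone 226-47. The median centred log2 Cy3 signal was -0.41 in clone 210-58, -0.04 in clone 226-47 and 0.02 in PJ34 treated cells, against 0.03 in wild type. Relative to wild type, clone 210-58 lay at a median of -0.44 over 900 probes (SD over probes 0.21), clone 226-47 at -0.06 (SD 0.15) and PJ34 treated cells at -0.01 (SD 0.16), against -7.8e-05, 0.04 and 0.03 in the rest of the chromosome. All 127 runs were below wild type in clone 210-58, from -0.73 to -0.10. In clone 226-47, 86 of the 127 runs were below wild type, from -0.34 to 0.10, and after PJ34 66 were. By probe this was 69.1% and 52.4%, against 37.1% and 43.0% in the rest of the chromosome. The fall in clone 210-58 was smaller with normexp background correction, at a median of -0.19. Then 57.2% of its probes from 70721306 to 83463332 and 59.4% of those from 83463420 to 89328071 were below wild type, against 97.1% and 97.9% in the processed signal.

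**Figure D2:**
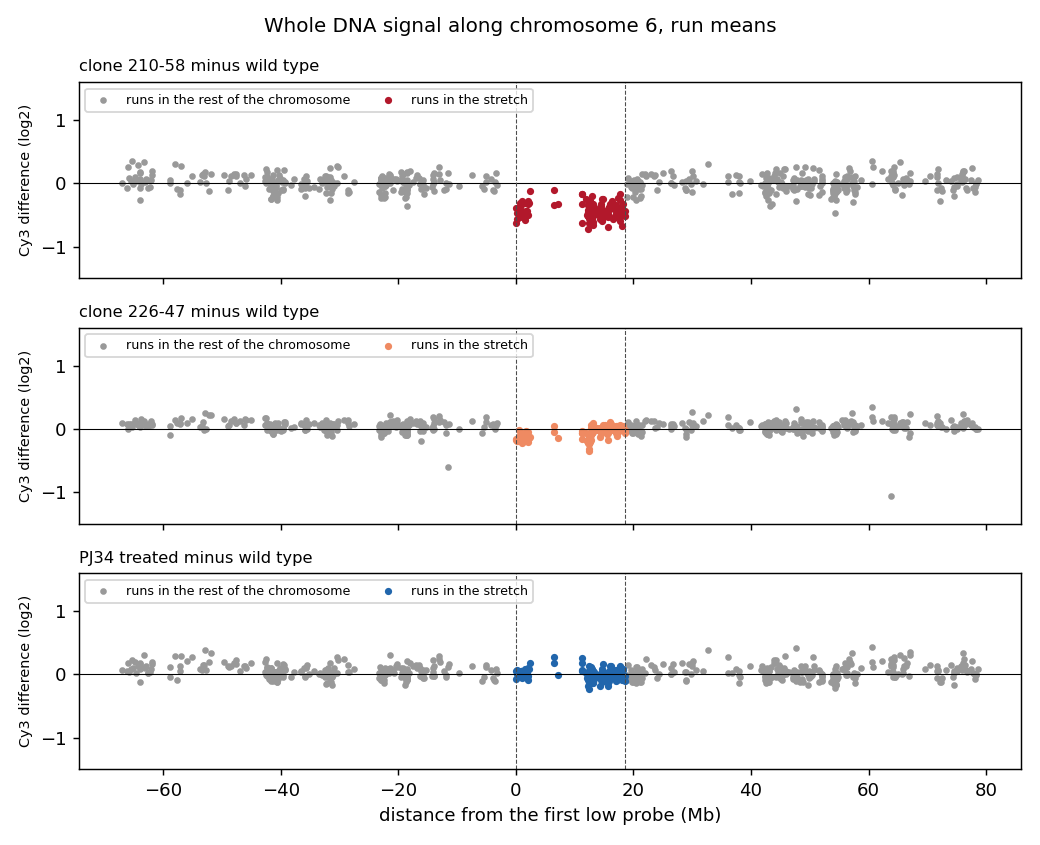
Mean Cy3 difference from wild type (log2, y axis) of each run along chromosome 6, by distance in Mb from the first low probe (x axis), with dashed lines at both change points in clone 210-58. Coloured points are the 127 runs of the stretch, and in clone 210-58 all lie below 0. In clone 226-47 the proximal part of the stretch lies a little lower than the distal part.

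Both borders of the chromosome 6 stretch could be placed in clone 210-58. The proximal one lay between 67465339 and 70721306, a gap of 3.26 Mb without probes, and the distal one between 89328925 and 89560837, a gap of 0.232 Mb. The low span between them was 18.6 Mb long with 901 probes. The first 4 probes of the stated interval lie before the gap, in a run from 67464490 to 67465339 whose Cy3 difference was -0.02 in clone 210-58. After the gap, the run from 70721306 to 70721860 had -0.63 in clone 210-58, -0.16 in clone 226-47 and -0.07 in PJ34 treated cells. At the distal end the stated interval stops inside a run of 12 probes from 89327200 to 89328925, which had -0.52 in clone 210-58. Of the 5 probes of that run past the interval, 4 were at -0.56 to -0.45 and the other was at 0.07. The next run, from 89560837 to 89561380, had -0.01 in clone 210-58. With normexp the change points lay elsewhere, at 66825974 and 88864343.

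Clone 226-47 showed a smaller step over part of the same stretch. With at least 20 probes required in a segment, its change points in Cy3 lay at 70721306 and 83463332. Over these 421 probes its median difference from wild type was -0.16 (SD over probes 0.15), with 86.9% of probes below wild type. Over the 475 probes from 83463420 to 89328071 it was -0.01 (SD 0.12). Clone 210-58 had -0.45 and -0.44 in the same parts, and PJ34 treated cells had -0.01 and -0.02. In the processed signal the proximal change point of clone 226-47 fell in the same gap as that of clone 210-58, and the distal one did not. With normexp the proximal one lay between 70721350 and 70721487, inside the first low run, and the distal one was at 83463332 again. With only 3 probes required, the processed signal marked another segment, of 3 probes from 134001973 to 134532383 outside the stretch. These segments were set from the same values, so the step is a description.

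Over all probes of each stretch, the Cy5 (IP) signal fell by less than Cy3, and scattered more. In the chromosome 14 stretch clone 210-58 lay at a median of -0.50 in Cy5 relative to wild type (SD over probes 0.67), clone 226-47 at -0.34 (SD 0.72) and PJ34 treated cells at -0.04 (SD 0.67), against -0.05, 0.10 and 0.06 in the rest of the chromosome. It was below wild type at 363, 330 and 235 of the 444 probes (81.8%, 74.3% and 52.9%), against 53.4%, 42.7% and 46.8% in the rest. On chromosome 8 this share was 68.8% and 63.8% in the clones. With normexp the median in clone 210-58 was -0.18. In the chromosome 6 stretch it was -0.29 in clone 210-58, 0.04 in clone 226-47 and 0.02 in PJ34 treated cells, against -0.02, 0.08 and 0.08 in the rest. With normexp the fall in clone 210-58 was nearly gone, at -0.0093. On chromosome 8 the medians of Cy5 were -0.28 and -0.21 in the clones, again smaller in size than those of Cy3. Not all runs followed this order. In the chromosome 14 stretch, 14 runs had a mean log2 ratio of IP to whole DNA above 0.5. Their median Cy5 difference was -0.88 in clone 210-58 and -1.01 in clone 226-47, against -0.66 and -0.67 in Cy3. At the 18 runs with a mean ratio below -0.5 it was -0.43 and -0.20, against -0.83 and -0.75. In clone 226-47 such an order was not particular to the stretch. Its Cy5 medians were -0.28 above 0.5 and 0.30 below -0.5 over all runs of each level, against 0.04 and 0.03 in Cy3. On chromosome 8 they were -0.76 and 0.0071, against -0.40 and -0.44. Clone 210-58 had Cy5 medians of -0.38 and -0.37 on chromosome 8, against -0.42 and -0.45, and 0.0036 and -0.09 over all runs.

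The log2 ratio of IP to whole DNA was higher than in wild type in the stretches in both clones, but not only there. Chromosome 8, also low in Cy3, had median shifts of 0.10 (clone 210-58) and 0.19 (clone 226-47) over 810 runs. Chromosome 11, with Cy3 raised in clone 210-58, had shifts of -0.19 and 0.10 over 1202 runs, clones in that order. Over the 57 runs of the chromosome 14 stretch, clone 210-58 lay at a median of 0.13 relative to wild type (SD over runs 0.49), clone 226-47 at 0.26 (SD 0.56) and PJ34 treated cells at -0.04 (SD 0.45). Over the 400 runs in the rest of the chromosome it was -0.03, 0.13 and -0.04. The ratio was above wild type at 35, 41 and 26 of the 57 runs (61.4%, 71.9% and 45.6%). It was so at 45.6%, 56.8% and 48.8% of all 14121 runs, and on chromosome 8 at 60% and 64.4% in the clones. Over the 127 runs of the chromosome 6 stretch the median difference was 0.11, 0.18 and -0.05. Over 532 runs in the rest it was -0.06, 0.05 and -0.04. The ratio itself had medians over these 127 runs of 0.15 in clone 210-58, 0.10 in clone 226-47 and -0.05 in PJ34 treated cells, against -0.07 in wild type. The size of the shift moved with the processing: the mean of both clones on chromosome 14 lay 0.20 above wild type, against 0.55 with normexp background correction, 0.71 with loess and 0.30 in runs of at least 5 probes. For clone 210-58 on chromosome 6 the value of 0.11 became 0.32 with normexp, 0.49 with loess and 0.17 when centred on the rest of the chromosome. The ratio shares the Cy3 channel that chose the stretches, so the shifts in the stretches are not independent of the choice.

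**Figure D3:**
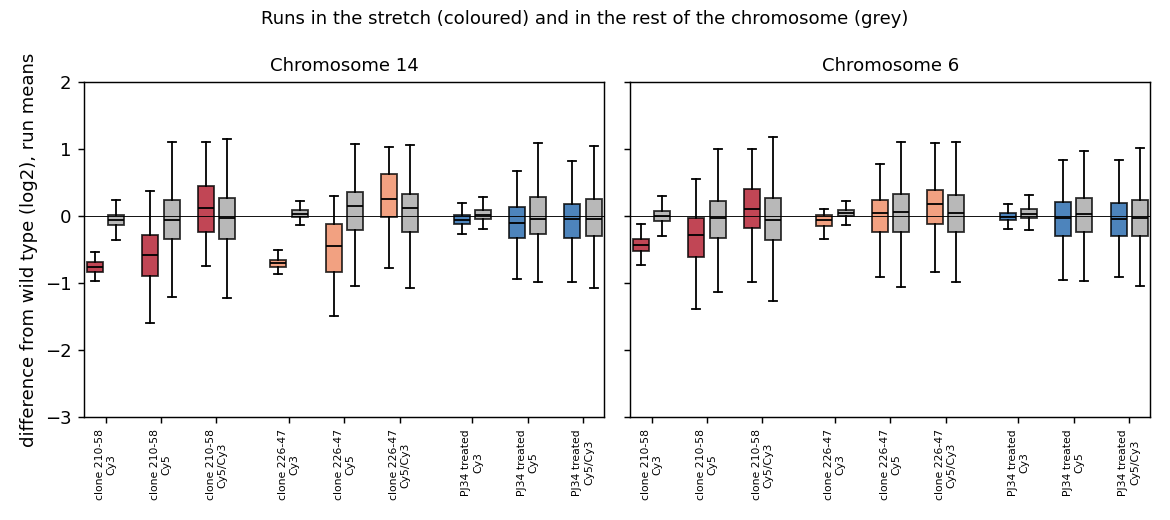
Differences from wild type (log2, y axis) of run means in Cy3, in Cy5 and in their ratio for clone 210-58, clone 226-47 and PJ34 treated cells, with the stretch in colour left of the rest of its chromosome in grey. Boxes span the quartiles with the median as a line, and outlying runs are not drawn. The Cy3 boxes of the clones on chromosome 14 lie wholly below 0, whereas their Cy5 and ratio boxes are wider.

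On chromosome 14 the shift differed with the level of the run. Among the 18 runs of the chromosome 14 stretch whose mean ratio over the 4 arrays was below -0.5, the median difference was 0.28 in clone 210-58 and 0.54 in clone 226-47, against -0.14 and 0.30 over 116 runs of that level in the rest of the chromosome. Among the 14 runs above 0.5 it was -0.25 and -0.37, against -0.05 and -0.27 over 116 runs. There both clones were higher than wild type at the runs of low ratio and lower at those of high ratio. On chromosome 6 the order was another in clone 210-58: the median difference was 0.08 over the 38 runs of the stretch below -0.5 and 0.24 over the 37 runs above 0.5, against -0.05 over 123 runs and -0.09 over 160 runs in the rest. In clone 226-47 it was 0.38 and -0.08 in the stretch, against 0.34 and -0.23 in the rest.

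No run of the chromosome 14 stretch was called different between the clones and wild type (limma with Benjamini-Hochberg adjustment over all runs), where 2.78% of all 14121 runs were called. At an unadjusted p under 0.05 there were 8 such runs of 57, and 15 of 127 in the chromosome 6 stretch, where 12% of all runs were so. With normexp background correction of the raw signals, 21 of the 57 runs were called higher and 1 lower, where 3.02% of all runs were called in either direction. In the chromosome 6 stretch 2 of 127 runs were called, both higher in the clones, where 1.19% of all runs were called higher and 1.59% lower. On chromosome 6 no run was called by limma without its trend of variance on level, after quantile normalization or after loess, while 1 was called with normexp and 1 with medians over probes. Since the clones and the wild type array are those that chose the stretches, nothing is read from these counts.

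The first called run, from 84549860 to 84551683 with 14 probes, had log2 ratios of 0.71 in clone 210-58, 0.08 in clone 226-47 and 0.69 in PJ34 treated cells, against -0.64 in wild type. The mean of the clones was 1.03 above wild type, and the PJ34 treated array was above it too. The call used the same wild type array, so the PJ34 difference is not independent of it. The second, from 83667765 to 83668625 with 8 probes, had 0.89, 0.28 and 0.09 against -0.40, a difference of 0.98 for the mean of the clones. The Cy5 difference from wild type was 0.89 and 0.67 in clones 210-58 and 226-47 at the first run, and 1.10 and 0.60 at the second. In wild type, Cy5 was well above background at 11 of the 14 probes of the first run and 7 of the 8 of the second. On the other arrays it was so at all of them. These values come from the arrays that chose the stretches and describe the 2 runs.

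The runs of the chromosome 14 stretch with the highest ratios were picked by their mean over the same 4 arrays. A high ratio on every array is thus partly set by the pick. The highest, from 117417581 to 117417916 with 3 probes, had 4.97 in clone 210-58, 4.56 in clone 226-47 and 5.52 in PJ34 treated cells, against 4.57 in wild type. The run from 117041557 to 117041981 had 4.32, 3.99 and 4.74, against 4.35. Next came the runs from 121338160 to 121338535, with 3.99, 3.61 and 4.86 against 4.25, and from 103825668 to 103826036, with 3.79, 3.83 and 4.40 against 4.22. In the runs given so far the clones lay on either side of wild type or below it, and PJ34 treated cells above it.

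The largest falls in the ratio were at 2 further runs of the same pick by highest mean ratio. From 104991643 to 104992449 (8 probes) clone 210-58 had 3.52, clone 226-47 had 1.97 and PJ34 treated cells had 4.31, against 4.22 in wild type, a difference of -1.47 for the mean of the clones. From 107794079 to 107794350 (3 probes) they had 2.75, 3.38 and 4.53, against 4.16, a difference of -1.09. The largest rises were at runs below 0 in wild type: from 119612826 to 119613441 the clones had -0.74 and -0.85 and PJ34 treated cells -1.97, against -1.73 in wild type. From 104781571 to 104783090 (11 probes) they had -0.04, -0.40 and -1.32, against -1.16, a difference of 0.93.

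In the chromosome 6 stretch the highest run, from 84100637 to 84101471 with 5 probes, had 4.48 in clone 210-58, 4.08 in clone 226-47 and 4.86 in PJ34 treated cells, against 4.28 in wild type. The run from 89322243 to 89322662 had 3.77, 2.81 and 3.77, against 3.49, and that from 83333537 to 83334179 had 3.49, 2.71 and 3.40, against 3.49. Clone 226-47 was the lowest array at each of these 3 runs. This is not particular to the stretch: over all 4291 runs with a mean ratio above 0.5, its median difference from wild type was -0.28.

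The largest rises in clone 210-58 on chromosome 6 after the 2 called runs were from 88162103 to 88163094, with 1.26 in clone 210-58, 0.51 in clone 226-47 and 1.64 in PJ34 treated cells, against 0.26 in wild type, and from 83101505 to 83101842, with 1.65, 1.01 and 1.56, against 0.72. A longer run of 23 probes, from 83034278 to 83037197, had 0.25, -0.01 and 0.07, against -0.68. PJ34 treated cells were above wild type at all 3, though no inhibitor effect was tested with 1 array. The runs were picked by their rise over that same wild type array, so the PJ34 differences are not independent of the pick. The largest falls were from 88592872 to 88593511, with 0.94, 0.82 and 1.20 against 1.92 in wild type, and from 88689802 to 88690857, with 0.11, 0.43 and 0.29 against 1.04. At the first of these the mean of the clones differed from wild type by -1.04.

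**Figure D4:**
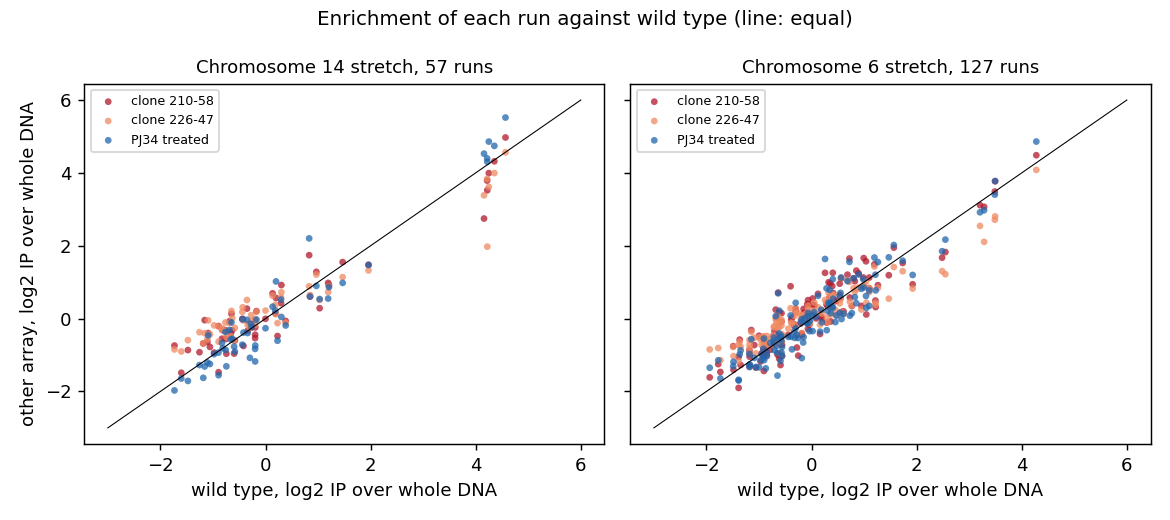
Log2 ratio of IP to whole DNA of each run of the stretch on clone 210-58, clone 226-47 and PJ34 treated arrays (y axis) against the wild type array (x axis), with a line where they are equal. In both stretches a group of highly enriched runs sits apart from the rest, and most of these runs lie below the line in clone 226-47. Over all 4291 runs with a mean ratio above 0.5, that clone also lay below wild type, at a median of -0.28.

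By the size rule of at least 1 on the log2 scale, PJ34 treated cells were above wild type at 1 of 57 runs of the chromosome 14 stretch and below at 0, where 2.44% of all runs were above and 1.25% below. In the chromosome 6 stretch they were above at 2 of 127 runs and below at 0. Clone 210-58 was above wild type by that size at 2 of 127 runs and below at 0, where 3.31% of all runs were above and 3% below. Clone 226-47 was above by that size at 1 of 127 runs and below at 4, where 0.963% of all runs were above and 2.96% below.

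The size of the Cy3 difference varied with the brightness of the probe in wild type. In clone 210-58 the median difference in the chromosome 14 stretch was -0.70 over the 148 dimmest probes and -0.91 over the 148 brightest, and in the chromosome 6 stretch -0.34 over the 300 dimmest and -0.55 over the 300 brightest. In clone 226-47 on chromosome 14 it was -0.75 and -0.69. Probes were sorted by the same wild type Cy3 that is subtracted, so these differences are not independent of the sort. Probes outside the stretches were not sorted in this way, so the values are not read as particular to the stretches. The SD of Cy3 over probes of autosomes other than 6, 8, 11 and 14 was 0.96 in clone 210-58. It was 1.09 in clone 226-47 and 1.08 in wild type. Among the runs of the chromosome 14 stretch, the Cy3 of clone 210-58 came closest to wild type from 117015043 to 117015308, at -0.30, and from 113922072 to 113923087, at -0.42, where clone 226-47 had -0.43 and -0.25. In the chromosome 6 stretch it came closest from 77172011 to 77172665, at -0.10, from 73178144 to 73178615, at -0.11, and from 81931156 to 81931601, at -0.16. PJ34 treated cells were above the same wild type array at these runs. They were at 0.36 and 0.19 on chromosome 14 and at 0.27, 0.18 and 0.18 on chromosome 6. Whether any of these runs was retained in a clone was not tested. The part of probe brightness in the levels was not tested.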

How the data were processed

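MeDIP and whole DNA were measured on 1 two-channel Agilent CpG island array for each of 4 samples: Parp-1 deficient clones 210-58 and 226-47, PJ34 treated J1 and wild type J1. The deposited intensity of each spot was background-subtracted and dye-normalized, per the file headers by Agilent Feature Extraction 10.7.3.1, while version 9.1 stands in the submitters' processing notes. The deposited value table holds a linear ratio, processed Cy5 over Cy3 of the same array, and served only as a check. Other deposited columns are flags with no unit.

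Of 97651 probes, 442 without a position and 30 with an outlier flag were left out, and 5950 control spots were not probes; none was saturated. Each channel's log2 processed signal, and the log2 ratio, was centred on the array's median over all probes. Runs of at least 3 probes with starts at most 500 bp apart took the mean of their probes, and a run belonged to a stretch where most of its probes did. For the 14121 runs, limma 3.58.1 under R 4.3.3 (lmFit, eBayes with trend) compared both clones with the wild type array at a Benjamini-Hochberg adjusted p of 0.05. The 2 clones give the only spread, so p-values measure no more than that between them. Borders came from least-squares change points. On simulated data for this comparison over 14121 runs the fit recovered 13.7% of changes of size 1 and 72.9% of size 2, with 17 false calls per simulation on average over 10 simulations. Only a small part of the runs was changed, so the false calls are to be set against the runs called, not against all 14121. The noise was drawn independently for each run, so shifts shared by many runs were not simulated.

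Runs were named by fixed rules (3 on each side of a border, the highest and lowest ratios, the largest changes, called runs, extreme Cy3 values). The rule to name genes at start sites could not be applied, since no annotation of the files' build was at hand, and no sequence was printed. The members and lists were chosen with earlier results of these data known. The alternatives are in the closing section.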

Additional observations from a re-analysis of the deposited data

How the results depend on the processing

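Of 138 alternatives tried, 86 moved a value by less than the spread between the clones or a count by at most 1.5 times, or left a border in place. The Cy3 fall of both clones on chromosome 14 and of clone 210-58 on chromosome 6, the higher ratio of the mean of the clones on chromosome 14 and that of clone 210-58 on chromosome 6 kept their direction under the alternatives run for each. In Cy3, without centring, the chromosome 14 stretch was at -0.83 in clone 210-58 and -0.70 in clone 226-47 and the chromosome 6 stretch at -0.50 in clone 210-58. With normexp correction clone 210-58 was at -0.67 on chromosome 14 and at -0.19 on chromosome 6, and its rest of each chromosome turned to 0.047 and 0.059. Clone 226-47 was at -0.77 on chromosome 14 when arrays were centred on the unaffected chromosomes and at -0.70 as a mean over probes. In Cy5, without centring, clone 210-58 was at -0.67 on chromosome 14 and -0.46 on chromosome 6. With normexp it was at -0.18 and -0.0093, its rest of both chromosomes turned to 0.10 and 0.10, and clone 226-47 was at -0.23 on chromosome 14. As a mean clone 226-47 was at -0.43. Leaving out either clone gave -0.77 to -0.73 in Cy3, -0.50 to -0.34 in Cy5 and 0.13 to 0.26 for the ratio on chromosome 14.

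The ratio of both clones on chromosome 14 was 0.55 with normexp, 0.71 with loess and 0.30 with at least 5 probes. That of clone 210-58 on chromosome 6 was 0.32 with normexp, 0.49 with loess and 0.17 when centred on the rest of the chromosome. For PJ34 treated cells, the median over probes gave -0.18 on chromosome 14 and -0.11 on chromosome 6, chromosome 6 turned to 0.039 with normexp and 0.016 with loess, and chromosome 14 to 0.046 with normexp and 0.00062 when centred on the rest of the chromosome, against -0.043.

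Over all runs, 182 were called without the trend, 27 after quantile normalization and 0 after loess, against 393. On chromosome 14, 1 was called without the trend and 22 with normexp, against 0. On chromosome 6, 1 was called with normexp and 1 with medians, and 0 without the trend, after quantile normalization or after loess, against 2. The Cy5 difference put the chromosome 14 border at 98182597 in clone 210-58 and between 78321982 and 78395378 in clone 226-47. On chromosome 6 normexp put the borders at 66825974 and 88864343, and Cy5 marked other segments, from 4697308 to 4698444 and, with at least 20 probes, from 52146387 to 52246404. The 20-probe rule and the probes between change points were chosen after seeing the data. The cause of these moves was not tested.

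No paired analysis was possible because the groups compared share fewer than 2 replicate numbers. The slide as a block left no residual degrees of freedom and was not run.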
